A study of Mus musculus with 6 samples.

Results

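The SLAM family genes Slamf1, Slamf6, Slamf7, Slamf8, Slamf9, Cd48, Cd244 and Ly9 and the adaptor gene Sh2d1a were described in obstructed mouse kidneys with and without Dkk3. They were taken by symbol, and all 9 were found among the 18421 genes tested. Renal tissue was taken 7 days after unilateral ureteral obstruction, in which a ureter is tied off. It came from 3 Dkk3-/- mice and from 3 C57Bl/6 mice labelled Dkk3 wildtype. Both groups carry the background strain label C57Bl/6, and every kidney was obstructed, so no unobstructed kidney was analysed here. The labels give neither age nor sex, do not say whether the mice were littermates or which part of Dkk3 was removed, and the lack of Dkk3 was not limited to a cell type by any label. The authors' deposited table holds a log2 fold change, an average level and a test per gene, and no value per mouse. The level in each mouse, the spread within a genotype, the overlap of the groups and the depth of each library could therefore not be given, and every value below is a comparison of 3 against 3 mice as the authors fitted it.

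SLAM receptors are surface proteins of blood cells. Most bind a copy of themselves on the neighbouring cell, while CD244 binds CD48, which is held in the membrane by a lipid anchor. The tails of most of these receptors carry tyrosine motifs that recruit the small adaptor SAP, the product of Sh2d1a, or its relatives of the EAT-2 type. SAP brings in the kinase Fyn and competes with phosphatases for the same motifs, so that the receptors can activate or restrain T cells, natural killer cells and B cells. SLAMF8 and SLAMF9 have short tails without these motifs and are known mainly from myeloid cells. In humans, loss of SAP causes X-linked lymphoproliferative disease.

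Dkk3, which encodes a secreted glycoprotein, was used to set the direction of the fold changes. Its log2 fold change was -4.43 in the authors' deposited table, or 21.6-fold lower in Dkk3-/- kidneys (edgeR's likelihood-ratio test, adjusted p = 2.98e-67). Fold changes were accordingly read as Dkk3-/- over C57Bl/6, since the header does not name the direction. With no value per mouse, Dkk3 then gives no separate check of the labels.

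The receptor genes Slamf8, Slamf9 and Slamf7 rose in Dkk3-/- kidneys and no gene of the family fell. Of the 9 genes, 3 passed an adjusted p of 0.05 upward in the authors' deposited table, against 1.17% of all genes tested, and none passed downward, against 0.890%. The other 6 genes had log2 fold changes above 0 without passing, so that all 9 lay above 0, as 52.3% of all genes did. An unadjusted p is given beside the calls to show how the rest of the family stood. By that measure 8 of the 9 were at p under 0.05 with a higher level in Dkk3-/- kidneys, against 5.91% of all genes. Fold changes of scarce genes spread more widely, so the same shares were taken over the 7317 genes between the lowest and the highest level of the family. Within that range 1.91% of genes were called higher, 8.09% had an unadjusted p under 0.05 upward and 56.0% lay above 0. The median log2 fold change was 0.78 for the 9 genes, or 1.72-fold, and 0.04 for the genes of that range.

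**Figure D1:**
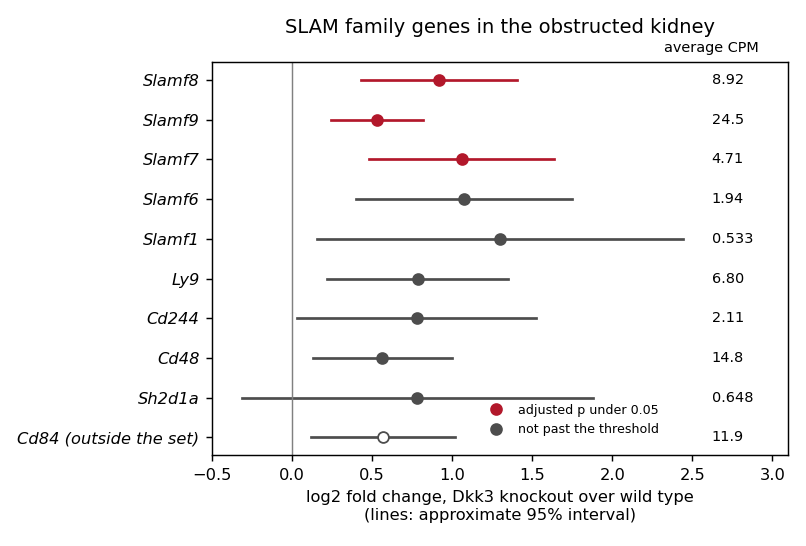
Log2 fold change of each SLAM family gene (points, Dkk3-/- over C57Bl/6, 3 mice each) with an approximate 95% interval (lines), and the average level over both genotypes in CPM at the right. Slamf8, Slamf9 and Slamf7 in red passed an adjusted p of 0.05, and the line of Sh2d1a alone crosses 0. Cd84, a further receptor of the family, is drawn with an open point.

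Slamf8 had the smallest p of the family. SLAMF8 is a receptor of macrophages and other myeloid cells that limits their oxidative burst in mice. Its log2 fold change was 0.92 in the authors' deposited table, a 1.89-fold higher level in Dkk3-/- kidneys (adjusted p = 0.0169). The approximate standard error was 0.25, taken as the log2 fold change over the root of the test statistic, and the 95% interval ran from 1.35- to 2.65-fold. Its average level over both genotypes was 8.92 CPM, a share of the counted reads scaled to the library, in the authors' deposited table. That average and the fold change together imply about 11.7 CPM in Dkk3-/- kidneys, against about 6.17 CPM in C57Bl/6 kidneys, which is arithmetic on the fitted values and not a mean over mice. The gene (ENSMUSG00000053318) occupies 172581758 to 172590568 of chromosome 1, minus strand (GRCm38, the assembly also called mm10).

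Slamf9 is its neighbour on chromosome 1, at 172475358 to 172478575 on the plus strand (ENSMUSG00000026548). SLAMF9 is a receptor of macrophages and plasmacytoid dendritic cells. Slamf9 had the smallest change of the 9 genes but the most precise one, with a log2 fold change of 0.53 in the authors' deposited table (adjusted p = 0.0201, approximate standard error 0.15). The level was 1.45-fold higher in Dkk3-/- kidneys, with an approximate interval of 1.19- to 1.76-fold. Its average of 24.5 CPM, again from the authors' deposited table, was the highest of the family, and about 29.0 CPM in Dkk3-/- kidneys and about 20.1 CPM in C57Bl/6 kidneys are implied. Its fold change lies under 1.5, so it was not called where a change of that size was asked for as well, which left 2 of the 9 genes against 1.01% of all genes upward.

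Slamf7 encodes CRACC, a self-binding receptor of natural killer cells, plasma cells and activated lymphocytes and myeloid cells that signals through EAT-2. Its log2 fold change was 1.06 in the authors' deposited table, a 2.08-fold higher level in Dkk3-/- kidneys (adjusted p = 0.0219, approximate standard error 0.29). Its average level was 4.71 CPM in the authors' deposited table, with about 6.36 CPM implied in Dkk3-/- kidneys and about 3.06 CPM in C57Bl/6 kidneys. The gene (ENSMUSG00000038179) occupies 171632403 to 171653035 of chromosome 1, also on the minus strand. The antisense gene Gm37787 overlaps 423 of the 4577 bases of its merged exons, or 9.24%. How strand was handled in counting is not given in the sources used here, so reads from that stretch cannot be assigned.

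The 250 bases before the transcription start of these receptor genes are shown because all 3 rose. They come from RefSeq (GRCm38.p6), which had a promoter entry for 7 of the 9 genes, Ly9 and Sh2d1a being the others. The stretch of Slamf8 is chr1:172590569-172590818 on the minus strand, that of Slamf9 chr1:172475110-172475359 on the plus strand, and that of Slamf7 chr1:171649000-171649249 on the minus strand. The stretch of Slamf7 lies inside the GENCODE span given above, because RefSeq places the start of that gene differently, and distances are counted from the RefSeq start of each gene. Capitals mark matches to the searched motifs.
Slamf8: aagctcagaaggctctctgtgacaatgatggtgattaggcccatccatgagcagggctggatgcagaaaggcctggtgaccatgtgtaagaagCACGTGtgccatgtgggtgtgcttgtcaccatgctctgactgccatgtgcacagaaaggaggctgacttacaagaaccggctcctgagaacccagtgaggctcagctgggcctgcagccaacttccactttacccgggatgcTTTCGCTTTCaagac
Slamf9: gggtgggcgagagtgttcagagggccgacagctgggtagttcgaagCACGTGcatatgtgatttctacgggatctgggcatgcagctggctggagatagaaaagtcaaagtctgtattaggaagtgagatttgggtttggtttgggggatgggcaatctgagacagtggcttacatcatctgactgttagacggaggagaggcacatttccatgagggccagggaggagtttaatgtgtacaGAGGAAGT
Slamf7: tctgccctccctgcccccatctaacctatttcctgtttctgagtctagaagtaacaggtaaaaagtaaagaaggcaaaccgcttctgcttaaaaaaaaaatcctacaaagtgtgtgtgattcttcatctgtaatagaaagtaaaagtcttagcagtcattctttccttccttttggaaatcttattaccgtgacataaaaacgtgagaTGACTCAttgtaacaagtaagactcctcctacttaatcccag
The 6 motifs searched on both strands were PU.1 (GAGGAAGT), RUNX (TGTGGT), GAS (TTCNNNGAA), ISRE (GAAA, any 2 bases, GAAA), AP-1 (TGANTCA) and the E-box CACGTG, and no matches overlapped in these stretches. Slamf8 held an ISRE match on the reverse strand, 15 to 6 bases before the start, and an E-box at 157 to 152 bases. Among all 32536 distinct promoter stretches of that length, 2.98% held the ISRE letters and 6.04% the E-box. Slamf9 held the PU.1 letters in the last 8 bases before the start, found in 2.45% of all stretches, and an E-box at 204 to 199 bases. Slamf7 held an AP-1 match 42 to 36 bases before the start, found in 6.73% of all stretches. Of the genes that did not pass, Cd244 held AP-1 and E-box matches and Cd48 a RUNX match, whose letters occur in 13.96% of stretches, and Slamf1 and Slamf6 held none of the 6. These are letter matches, and no factor's binding was measured.

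Slamf6 lay just outside the threshold. It encodes Ly108, a self-binding receptor of T cells, B cells and natural killer cells that recruits SAP. Its log2 fold change was 1.07 in the authors' deposited table, with an adjusted p of 0.0705 (approximate standard error 0.34). With a threshold of 0.1 in place of 0.05 it passed too, which made 4 of the 9 genes against 1.81% of all genes upward. Its average level was 1.94 CPM in the authors' deposited table. Slamf7, which passed at nearly the same fold change, had the higher level and the smaller error.

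The other self-binding receptors did not pass. Ly9 encodes CD229, a receptor of T and B cells that restrains innate-like lymphocytes in mice, and its log2 fold change was 0.78 in the authors' deposited table (adjusted p = 0.157, average 6.80 CPM). Slamf1 encodes CD150, found on T cells, B cells, dendritic cells and macrophages, and its log2 fold change of 1.30 in the authors' deposited table was the largest of the family (adjusted p = 0.344). Slamf1 averaged 0.533 CPM in the authors' deposited table, the lowest level of the 9 genes, and its approximate interval of 1.11- to 5.42-fold contains the whole interval of Slamf9. Whether any member differed from another in its change was not tested.

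The ligand and receptor pair Cd48 and Cd244 did not pass either. Cd48, whose product is present on nearly all leukocytes, had a log2 fold change of 0.56 in the authors' deposited table (adjusted p = 0.209, average 14.8 CPM). Cd244, which encodes the natural killer and cytotoxic T cell receptor 2B4, had 0.78 in the authors' deposited table (adjusted p = 0.442, average 2.11 CPM). In mice CD48 also binds CD2 of T cells, and Cd2, named for that reason after its value was seen, rose by 1.53 on the log2 scale in the authors' deposited table (adjusted p = 0.00787). The annotated span of Cd244, listed in GENCODE as Cd244a, runs across the whole of Ly9 on the opposite strand, at 171559193 to 171609746 and 171588624 to 171607410 on chromosome 1. Their exons share no base, and no stretch of 50 bases, the read length, occurs in both.

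Sh2d1a had the weakest statistic. Its log2 fold change was 0.78 in the authors' deposited table (approximate standard error 0.56, adjusted p = 0.752), and the interval from 0.804- to 3.67-fold includes no change. It averaged 0.648 CPM in the authors' deposited table, and Sh2d1a and Slamf1 were the 2 family genes under 1 CPM. Sh2d1a is the 1 gene of the set on the X chromosome, at 42502453 to 42529330 on the plus strand. Of the bases of its merged exons, 1465 (26.6%) are also exons of Tenm1 on the opposite strand. Tenm1 itself averaged 0.135 CPM in the authors' deposited table, with a log2 fold change of 2.66 (adjusted p = 0.609).

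**Figure D2:**
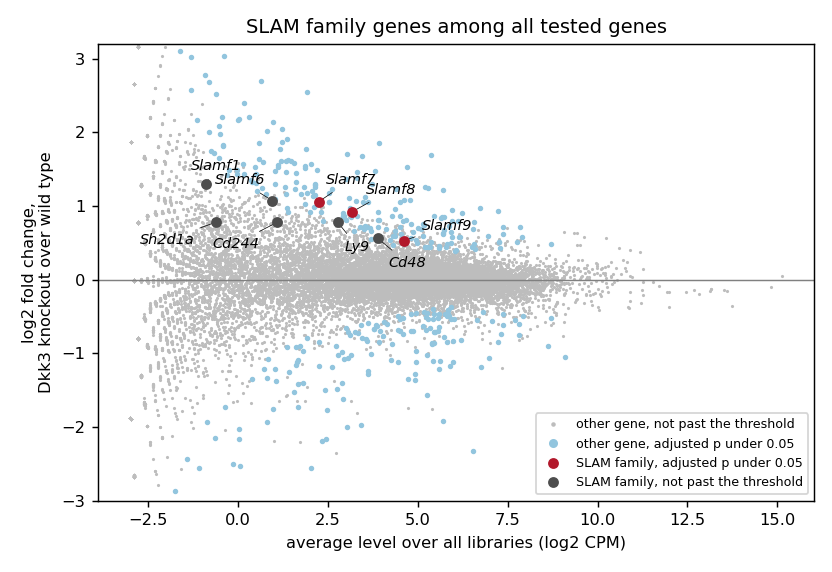
Log2 fold change (vertical axis, Dkk3-/- over C57Bl/6) against average level over all libraries in log2 CPM (horizontal axis) for all 18421 genes, of which 107 lie outside the vertical range shown. The SLAM family genes lie above 0, with Slamf7, Slamf8 and Slamf9 (red) past the threshold and the scarce Slamf1 and Sh2d1a at the left.

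Levels were compared between genes per length, as average CPM per kilobase of merged exons over both genotypes, computed from the authors' deposited table and the GENCODE annotation. On that scale Slamf9 stood at 18.7 and Cd48 at 12.4. Slamf8 followed at 2.90, then Ly9 at 2.06 and Slamf7 at 1.03. The lowest were Cd244 at 0.433, Slamf6 at 0.179, Sh2d1a at 0.118 and Slamf1 at 0.0865. Without values per mouse the spread of these levels is unknown, so neighbours in the order were not told apart. The merged exons cover every annotated transcript, 10832 bases over 7 transcripts for Slamf6 and 1189 over 2 for Cd48. Which transcripts these kidneys expressed is unknown, so the lengths used may be too long and the order may differ. The receptor with the highest level per length and that with the lowest were also those with the smallest and the largest fold change. The lowest, Slamf1, did not pass, and its approximate interval ran from 1.11- to 5.42-fold. Fold changes of scarce genes spread more widely, and whether change followed level was not tested.

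Partner genes of SLAM signalling rose in part, the kinase genes Lck and Zap70 among them. Of 22 partner genes measured, 3 passed upward and none downward in the authors' deposited table, against 1.17% of all genes upward. An unadjusted p under 0.05 was found for 8 of the 22, all of them higher, against 5.91% of all genes upward. Their median log2 fold change was 0.32, against 0.01 for all genes. Lck, the Src kinase of the T cell receptor, rose by 1.07 on the log2 scale in the authors' deposited table (adjusted p = 0.00109, approximate standard error 0.24). Zap70, which encodes a further kinase of that receptor, rose by 1.26 in the authors' deposited table (adjusted p = 0.0262). Lcp2, which encodes the scaffold SLP-76, had 0.62 in the authors' deposited table and did not pass (adjusted p = 0.179).

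Other partner genes close to the receptors did not pass. Fyn, the kinase that SAP recruits, had a log2 fold change of 0.22 in the authors' deposited table (adjusted p = 0.757). The EAT-2 genes Sh2d1b1 and Sh2d1b2 had 0.71 and 0.44 in the authors' deposited table, with adjusted p of 0.347 and 0.815. The phosphatase genes that compete with SAP had 0.22 for Ptpn6, 0.05 for Ptpn11 and 0.55 for Inpp5d in the authors' deposited table, with adjusted p of 0.609, 0.965 and 0.268. Cd84, a self-binding receptor of the same family outside the set, had 0.57 in the authors' deposited table (adjusted p = 0.244, average 11.9 CPM). The genes of this paragraph lie outside the rule for named genes and were chosen after their values were seen.

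Markers shared by all leukocytes lay above 0 as well. Of all genes, 1.17% were called higher and 5.91% had an unadjusted p under 0.05 upward. Of 10 markers shared by all leukocytes, 3 rose and all had an unadjusted p under 0.05 upward in the authors' deposited table, with log2 fold changes of 0.39 to 0.85 and a median of 0.55. They were the surface glycoprotein gene Cd52 (0.85), the integrin gene Itgb2 (0.76) and the actin-bundling gene Lcp1 (0.59). The values of Slamf8, Slamf7, Slamf6 and Slamf1 lay above the highest of these 10 and those of the other 5 family genes within their range. The approximate 95% intervals of Slamf8, Slamf7, Slamf6 and Slamf1 began at 0.43, 0.48, 0.40 and 0.16, all below the 0.85 of Cd52. Whether the family genes differed from these markers was not tested. In renal tissue, fewer cells of a type and less RNA per cell cannot be told apart, nor can more cells and more RNA per cell.

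T cell markers had the highest median of the marker lists. The share of all genes called higher, for comparison with each list, was 1.17%, and 5.91% had an unadjusted p under 0.05 upward. Of 18 T cell markers 10 rose in the authors' deposited table, with a median log2 fold change of 1.39, and the chain genes of the T cell receptor complex Cd3e, Cd3g and Cd3d rose by 1.87, 1.57 and 1.52. All were scarce, with averages of 2.34 to 4.09 CPM in the authors' deposited table. Among 11 natural killer and cytotoxic markers the granzyme gene Gzmk alone rose, by 2.19 in the authors' deposited table (adjusted p = 5.23e-04), and the list median was 0.54. Of 10 B cell markers Fcrla alone rose, by 1.32 in the authors' deposited table with an adjusted p of 0.0499, and the median was 0.42. Of 9 plasma cell markers the antibody joining chain gene Igj (4.69) and the chaperone gene Mzb1 (2.05) rose in the authors' deposited table, with a median of 0.40 for the list. An unadjusted p under 0.05 upward was found for 16 of the 18 T cell and 3 of the 11 natural killer and cytotoxic markers. Among the B cell markers 3 of 10 had one, and among the plasma cell markers 5 of 9. The members of lowest level in these lists were under 1 CPM, and their part in the family's values was not tested.

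Macrophage and monocyte markers lay mostly above 0, although none passed. Among all genes 1.17% passed upward, 0.890% passed downward, 5.91% had an unadjusted p under 0.05 upward and 52.3% lay above 0. None of 16 macrophage and monocyte markers passed edgeR's test in the authors' deposited table, a count near the share of all genes. Of the 16, 15 lay above 0 and 8 had an unadjusted p under 0.05, all of those upward. Log2 fold changes of the 16 ran from -0.09 to 0.65 with a median of 0.38. The value of the myeloid receptor gene Slamf8 lay above all 16, as did those of 6 other family genes, while those of Slamf9 and Cd48 lay within. The approximate interval of Slamf8, 1.35- to 2.65-fold, contains the 1.57-fold of Lyz2, the highest of the 16. All 16 markers averaged 23.4 CPM or more, and the family genes above them 8.92 CPM or less. Whether the family genes differed from these markers was not tested. Of 10 dendritic cell markers 2 rose in the authors' deposited table, the migration receptor gene Ccr7 (1.33) and the plasmacytoid gene Siglech (1.64), with a list median of 0.67. All 10 lay above 0, and 6 of them had an unadjusted p under 0.05 upward. None of 9 neutrophil markers passed edgeR's test in the authors' deposited table, again near the share of all genes. Of these 9, 1 had an unadjusted p under 0.05, Cxcr2 at 1.03. Of 9 mast cell and eosinophil markers the granule protein gene Prg2 alone rose (3.61 in the authors' deposited table, with a mean level of 0.415 CPM), 8 of the 9 were under 1 CPM, and the list median was 1.28. Of 12 renal tubule markers 5 fell and none rose in the authors' deposited table, with a median of -0.48, and Slc26a4 of intercalated cells had the lowest p of these (-1.11). The part of these markers in the family's values was not tested.

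**Figure D3:**
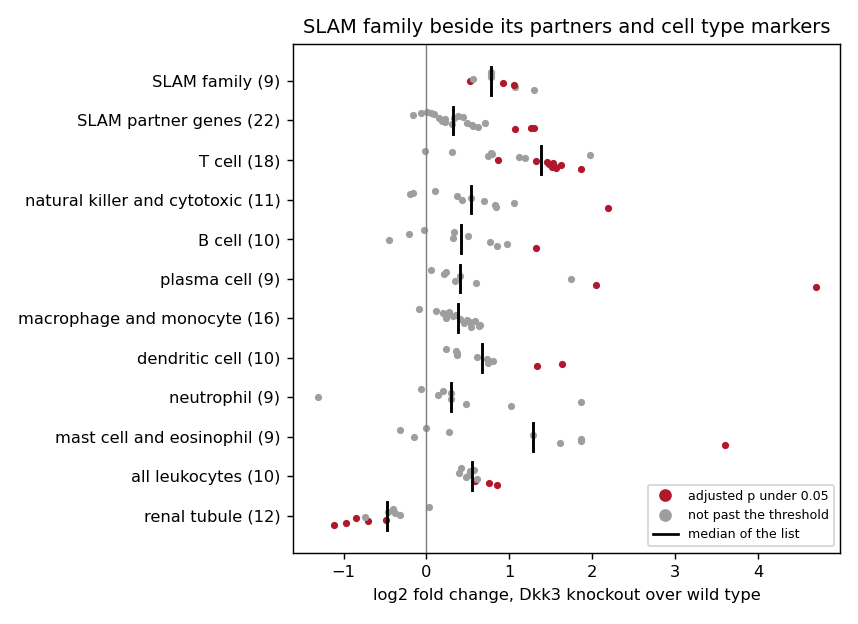
Log2 fold change (Dkk3-/- over C57Bl/6) of each SLAM family gene, each SLAM partner gene and each cell type marker, a point per gene, with the number measured in brackets and the list median as a black bar. The family's median of 0.78 stands below those of the T cell markers at 1.39 and the mast cell and eosinophil markers at 1.28. The other lists have lower medians, the highest of them dendritic cell at 0.67 and all leukocytes at 0.55.

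The receptor genes form a pair of clusters on chromosome 1, and the other measured genes around them are described here. Cd244, Ly9, Slamf7, Cd48, Slamf1 and Slamf6 lie within 394 kb, with Cd84 among them, and Slamf9 and Slamf8 within 115 kb, 522 kb further on. Cd48 occupies 171682009 to 171705258, Slamf1 171767127 to 171801184 and Slamf6 171917515 to 171953170, all on the plus strand. Of the 47 other measured genes within 500 kb of these clusters, Cd84 left out, none passed edgeR's test in the authors' deposited table. Among all genes 2.06% passed in either direction, so a count of 0 among 47 is near that share. An unadjusted p under 0.05 was reached by 7 of the 47, all but Kcnj10 (-0.46) higher in Dkk3-/- kidneys. Of all genes, 5.91% were higher at that p, a share that leaves out genes that were lower, while the 7 include Kcnj10. Of those 7 neighbours, 4 averaged 1 CPM or more. The median log2 fold change of the 47 was 0.06, against 0.01 for all genes. Above 0 were 30 of the 47, as were 52.3% of all genes. Lowest in p in the authors' deposited table was the leukocyte Fc receptor gene Fcgr3 (0.48, adjusted p = 0.103). At an average of 1 CPM or more, 39 of these neighbours had log2 fold changes from -0.46 to 0.68. Among the 3 measured genes within 500 kb of Sh2d1a none passed edgeR's test and none reached an unadjusted p of 0.05.

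**Figure D4:**
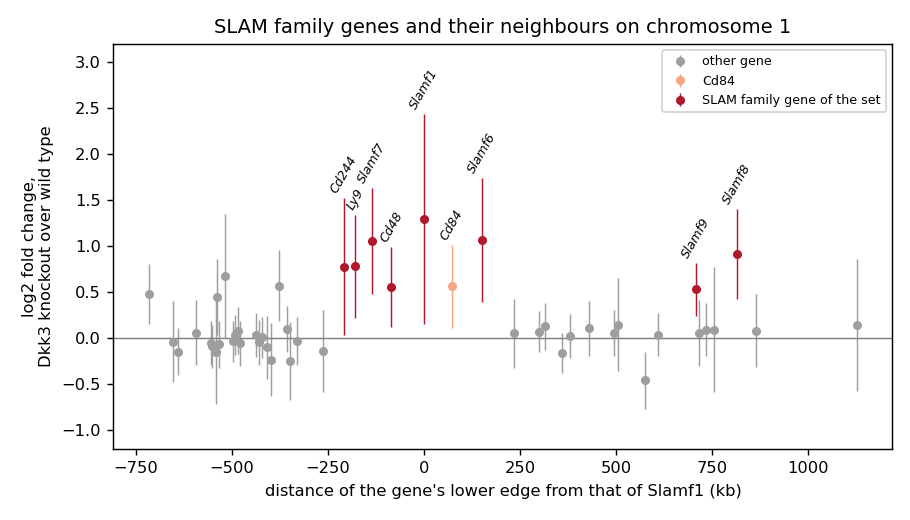
Log2 fold change (Dkk3-/- over C57Bl/6, with approximate 95% intervals) of the SLAM family genes (red), Cd84 (orange) and their neighbours (grey, at an average of 1 CPM or more) against the distance in kb from the edge of Slamf1. The 8 family genes of chromosome 1 lie from 0.53 to 1.30, while the median of the 39 neighbours shown is 0.04. A further 8 neighbours, averaging under 1 CPM, are not drawn.

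Sequence shared with other genes was small for the 3 called receptors. No stretch of 50 bases in the transcripts of Slamf8 or Slamf9 occurs in another annotated gene, on either strand. In Slamf7 7.14% of stretches do, all 326 of them with Gm37787, and in Slamf1 2.38%. In Sh2d1a 25.6% of stretches do, nearly all with Tenm1.

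The family's calls were made with the authors' chi-square distribution and did not hold under the 1 other distribution tried. That alternative reads the deposited score anew without refitting any dispersion, and no other prior was tried. What a quasi-likelihood fit of the counts would call is therefore unknown. With an F distribution in place of chi-square (14 degrees of freedom, of which 4 are residual and 10 an assumed prior), none of the 9 family genes and none of the partner genes passed, against 0.217% of all genes upward. The adjusted p was then 0.186 for Slamf8, 0.197 for Slamf9 and 0.201 for Slamf7, and Lck and Zap70 were not called. Of the T cell markers 1 of 18 was then called, of the renal tubule markers 2, of those of all leukocytes none, and Gzmk, Fcrla, Ccr7, Siglech and Prg2 were not called, while the plasma cell list kept its count of 2.

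**Figure D5:**
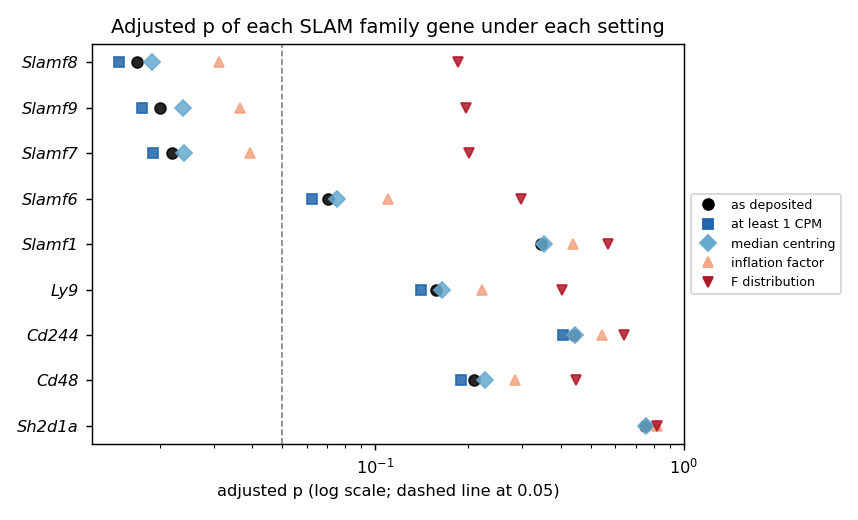
Adjusted p (log axis, dashed line at 0.05) of each SLAM family gene as deposited, among genes of at least 1 CPM, after centring on the median, with the scores divided by their inflation factor, and with an F distribution. Slamf8, Slamf9 and Slamf7 stay left of the line in the first 4 settings and stand at 0.186 to 0.201 with the F distribution.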

How the data were processed

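Total RNA of 6 obstructed kidneys was sequenced as single reads on an Illumina HiSeq instrument, per the labels' protocols. The build mm10 and the package edgeR are named in the submitters' processing notes. Aligner, counter, strand setting and low-count filter were not given in the sources used here. Deposited columns are, per the file headers, a log2 fold change, a mean log2 CPM, the score of a likelihood-ratio test, its p-value and its FDR. Each p-value was that of the score under chi-square. The deposited table holds no value per sample, so library depth is unknown and a quasi-likelihood fit of counts could not be made. The authors' own test stands in its place, as planned for that case. A gene was called at an FDR, here the adjusted p, under 0.05 over all 18421 genes.

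Standard errors are approximate, as defined in the text. Implied levels take the average CPM as the mean of both genotypes. The family genes and all lists were chosen with earlier results of these data known, so no list was tested as a set. List symbols were matched on the listed symbol or, failing that, on GENCODE's name for the Ensembl identifier. The rule for named genes took every family gene, the called partner genes and the 4 with the smallest p, up to 3 per marker list and the called neighbours with the 2 of smallest p, and some genes it took are not reported here. Positions and exons come from GENCODE vM21 (GRCm38), for 18314 genes, or from RefSeq on the same assembly. Recomputed settings were tested on simulated data. Counting motifs in the receptor tails would need protein sequences, which were not used here. Python 3.11.15, pandas 2.3.3, numpy 2.4.6, scipy 1.17.1 and matplotlib 3.10.9 were used.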

Additional observations from a re-analysis of the deposited data

How the results depend on the processing

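Alternatives were a threshold of 0.1, an added minimum fold of 1.5, genes at 1 CPM or more only, division of the scores by their inflation factor of 1.09, an F distribution with 14 degrees of freedom and centring on the median. The number of family genes called was 3 as deposited and 0 with the F distribution, and the number of partner genes called was 3 and 0. In the other settings the family count was 2 to 4. The 2 came with the added fold change, which Slamf9 misses, and the 4 with the threshold of 0.1, which Slamf6 passes. These settings leave the log2 fold changes as deposited, apart from the constant that centring takes off, so they bear on the calls and not on the direction. Slamf1 and Sh2d1a were not tested at 1 CPM or more, and Dkk3 was called in each setting. The Fcrla call also ended with the inflation factor and with centring, and Prg2 was not tested at 1 CPM or more. With the F distribution 1 of 18 T cell markers and none of the markers of all leukocytes were called. No other gene near the clusters was called in any setting. Leaving out each mouse in turn was not run, since the deposited table has no value per mouse. No paired analysis was possible because the columns carry no replicate. The depth of the libraries is unknown, and the 2 family genes under 1 CPM have the widest intervals.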
